A study of Mus musculus with 4 samples.

Results

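Expression of 9 genes of the mesenchymal cell state was followed in sorted tumour cells of mouse lung: Vim, Cd44, Fn1 and Sparc, which shape the cytoskeleton, the cell surface and the matrix; Tgfbi and Tgfb1 of TGF-beta signalling; and Snai2, Zeb1 and Zeb2, transcription factors of the epithelial-to-mesenchymal transition. They were looked up by symbol in the deposited table, where all 9 were present among 17746 gene symbols, and all 9 passed the filter on low counts, as did 16301 genes in all. The tumours arose in Rb1fl/fl; Trp53fl/fl mice crossed with a GFP-LC3-RFP-LC3ΔG reporter of autophagy, and every library shares these alleles. Live cells that carried the epithelial surface protein EpCAM and RFP were divided into GFP-negative and GFP-positive cells, with 2 libraries of each. Mouse age, the agent that deleted the floxed alleles, the number of animals behind a library and any pooling are not stated in the labels. The titles of the samples assign high autophagic flux to GFP-positive cells and the design text assigns it to GFP-negative cells, so groups are named by GFP alone. No label says whether replicates came from different animals, so p-values measure the spread between these libraries, which may be technical.

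In the epithelial-to-mesenchymal transition, a cell loses the junction proteins and keratins that hold an epithelium together and gains vimentin filaments, matrix proteins and the ability to migrate. TGF-beta is a classical inducer of this transition, and factors of the SNAI and ZEB families carry it out, in part by binding E-box sequences in the promoters of epithelial genes such as that of E-cadherin. In small cell lung cancer, vimentin and CD44 are known from tumour cells that have left the neuroendocrine state. Most of these genes are also used by other cells of the lung, since fibroblasts, endothelial cells and macrophages express vimentin, and leukocytes express CD44. A bulk library cannot tell fewer cells of a type from less RNA per cell.

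Library totals were 51994432 to 73997175 counts. GFP-positive replicate 1 stood apart: counts were found there for 6063 gene symbols, against 15710 to 17617 in the other libraries, and 64.4% of the tested genes had 0 counts in it. Each fitted change and each list median printed below is therefore given with this library and without it. The sort was checked on Epcam, whose CPM (counts divided by the TMM-scaled size of the library) were 255 and 88.9 for GFP-negative replicates 1 and 2 and 94.0 and 65.9 for GFP-positive replicates 1 and 2. This order of replicates is kept throughout. Where a gene had 0 counts, the limit of 3 counts lay at 0.026 to 0.080 CPM, which covers counting error alone. Every change below is GFP-negative minus GFP-positive on the log2 scale.

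Promoter bases of Vim, Cd44 and Tgfbi, members whose levels were higher in both GFP-positive libraries, are shown for reference, as RefSeq gives them on GRCm38.p6, the same assembly as mm10. Windows of the 250 bases before an annotated start were matched for 6 of the 9 members: Vim, Cd44, Tgfbi, Tgfb1, Zeb2 and Sparc. Bases that GENCODE M21 places in an exon are left out of the Cd44 and Tgfbi lines. The whole Vim window lies before the RefSeq start but within an exon in GENCODE M21, whose Vim starts further upstream, so the Vim line is only a stretch of 30 bases around its TATA box, which is in capitals.
Vim (chr2:13574267-13574296, plus strand): tcctaacagtgtTATAAAagcagcgccctt
Cd44 (chr2:102901666-102901915, minus strand): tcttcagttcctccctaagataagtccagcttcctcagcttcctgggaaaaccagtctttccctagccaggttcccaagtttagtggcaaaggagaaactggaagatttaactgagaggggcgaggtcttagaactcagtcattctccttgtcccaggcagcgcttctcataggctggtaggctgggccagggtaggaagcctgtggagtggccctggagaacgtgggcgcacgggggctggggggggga
Tgfbi (chr13:56609336-56609522, plus strand): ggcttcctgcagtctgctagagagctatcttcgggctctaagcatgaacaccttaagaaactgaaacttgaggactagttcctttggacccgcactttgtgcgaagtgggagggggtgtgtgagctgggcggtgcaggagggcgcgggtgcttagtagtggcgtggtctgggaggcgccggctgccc
The windows were searched on both strands for the E-box CAGGTG of the SNAI and ZEB factors, the AP-1 motif TGANTCA and TATAAA, and no match overlapped another. The E-box was found in no window of these members and in 17.2% of 32851 promoter windows of mouse genes. TATAAA, present in 12.4% of windows, was found in Vim alone, 32 bases before the start. AP-1, present in 6.7% of windows, was found at 1 of the 4 annotated starts of Zeb2, 189 and 132 bases upstream. A match of letters is a description and shows no bound factor.

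Across the 9 genes, none passed edgeR's quasi-likelihood test after Benjamini-Hochberg adjustment over all tested genes (adjusted p = 1.0 for each), and none had an unadjusted p under 0.05. Over all tested genes 0.0982% were called, 0.092% as lower, and 3.1% had an unadjusted p under 0.05. In DESeq2's Wald test 1 member passed, Snai2, where 63 of all tested genes (0.386%) passed, 51 of them as higher. For 6 of the 9 members all libraries of one group lay on the same side of the other group, as for 31.8% of all tested genes. Of these 6, Vim, Cd44, Tgfbi and Fn1 lay lower in both GFP-negative libraries (6.63% of all tested genes), and Snai2 and Zeb1 lay higher in both (25.2%). Tgfb1, Zeb2 and Sparc overlapped. The members thus did not move as 1 block. The median fitted change of the members was -3.59, with 7 below 0, against a median of 0.91 over all tested genes. Of all 16301 tested genes, 11102 had fitted changes above 0. Without GFP-positive replicate 1 the medians were -1.46 for the members and 0.29 for all genes. The median over all genes was 1.12, 0.43 and 1.33 under DESeq2 size factors, upper quartile scaling and library totals, 3.92 with a replicate block and 3.81 with limma-voom. Among genes with counts in all 4 libraries it was -0.13 in the same fit and 0.098 when these genes were fitted alone, so its sign depended on which genes were included. Both medians, and those of the gene lists below, were the same with genes at 0 counts in a whole group set at their 3-count limit.

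**Figure D1:**
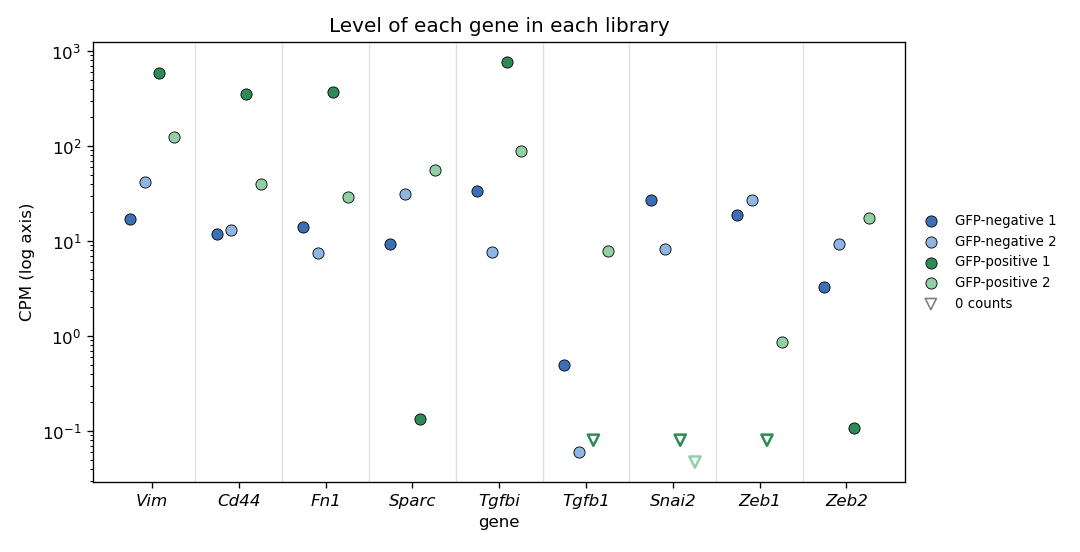
CPM on a log axis for each of the 9 genes, with a point for each library (blue, GFP-negative; green, GFP-positive) and open triangles at the 3-count limit where a library had 0 counts. Vim, Cd44, Fn1 and Tgfbi have both green points above both blue points, Snai2 and Zeb1 have both blue points above both green ones, and Sparc, Tgfb1 and Zeb2 are high in GFP-positive replicate 2 only among the GFP-positive libraries.

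Vim encodes vimentin, the intermediate filament protein of mesenchymal cells (chromosome 2, 13573927 to 13582826, plus strand). It stood at 17.03 and 41.5 CPM in GFP-negative libraries and at 581 and 124 CPM in GFP-positive libraries. The groups did not overlap, and replicate 1 was the lowest of all in the GFP-negative group and the highest of all in the GFP-positive group. The group means were 29.2 ± 17.3 CPM in GFP-negative and 353 ± 323 CPM in GFP-positive libraries (SD, n = 2 each). The log2 change was -3.59 ± 2.27 (SE), with an edgeR adjusted p of 1.0. Leaving out GFP-positive replicate 1 gave -2.09. The SE of this and the following changes comes from a spread that edgeR moderates across genes.

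Cd44 encodes the surface receptor for hyaluronan (chromosome 2, 102811141 to 102901665, minus strand). Its 2 GFP-negative libraries were close, at 11.9 and 13.0 CPM, whereas the GFP-positive libraries stood at 354 and 40.0 CPM. The groups did not overlap, but GFP-positive replicate 1 was 8.84 times GFP-positive replicate 2, a wider gap than the 3.09 and 3.37 times by which replicate 2 exceeded the 2nd and 1st GFP-negative libraries. The log2 change was -3.99 ± 2.92 with all libraries and -1.69 without GFP-positive replicate 1. CD44 isoforms differ by variable exons, and the gene-level counts do not show which were present.

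Fn1 encodes fibronectin, a matrix glycoprotein that integrins bind (chromosome 1, 71585520 to 71653200, minus strand). Its levels were 14.0 and 7.39 CPM in GFP-negative libraries and 370 and 28.9 CPM in GFP-positive libraries, so the groups did not overlap. GFP-positive replicate 1 set most of the difference, since the log2 change of -4.22 ± 2.95 was -1.44 without it. The antisense gene Apol7d shares exon bases with Fn1, and its reads were not analysed here.

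Sparc encodes osteonectin, a collagen-binding protein of the matrix (chromosome 11, 55394500 to 55423183, minus strand). It had 9.31 and 31.1 CPM in GFP-negative libraries and 0.13 and 55.3 CPM in GFP-positive libraries. The GFP-positive group thus held both the lowest and the highest value, and its low library had 5 counts. The log2 change of -0.45 ± 4.14 was -1.45 without GFP-positive replicate 1 and 7.23 without GFP-positive replicate 2, so no direction can be given.

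Tgfbi encodes a secreted matrix protein that TGF-beta induces (chromosome 13, 56609523 to 56639562, plus strand). It stood at 33.2 and 7.63 CPM in GFP-negative libraries and at 758 and 87.5 CPM in GFP-positive libraries. The groups were apart, with a spread of 4.35 times within the GFP-negative group and 8.66 times within the GFP-positive group. Its log2 change of -4.37 ± 2.25 had the smallest unadjusted p of the 9 genes, 0.0522, and was -2.11 without GFP-positive replicate 1.

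Tgfb1, the gene of the ligand TGF-beta 1, was scarce (chromosome 7, 25687002 to 25705077, plus strand). It had 56 and 4 counts in GFP-negative libraries, or 0.49 and 0.060 CPM, and 0 and 505 counts in GFP-positive libraries, or 0 and 7.92 CPM. A single library, GFP-positive replicate 2, thus held most of its counts. The log2 change was -3.83 ± 4.58, was -4.83 without GFP-positive replicate 1 and changed sign to 7.34 without replicate 2. That last fit set 0 counts against 56 and 4, so the size of 7.34 is not measured. At the limit of 3 counts, the GFP-negative mean was then at least 3.46-fold higher. That bound rests on GFP-negative replicate 1 alone, since replicate 2, at 0.060 CPM, lay below the limit of 0.080 CPM in GFP-positive replicate 1. The levels of Tgfb1 and of Tgfbi did not follow each other across libraries: Tgfbi was most abundant in GFP-positive replicate 1, where Tgfb1 had no counts. In that library 64.4% of all tested genes had none.

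**Figure D2:**
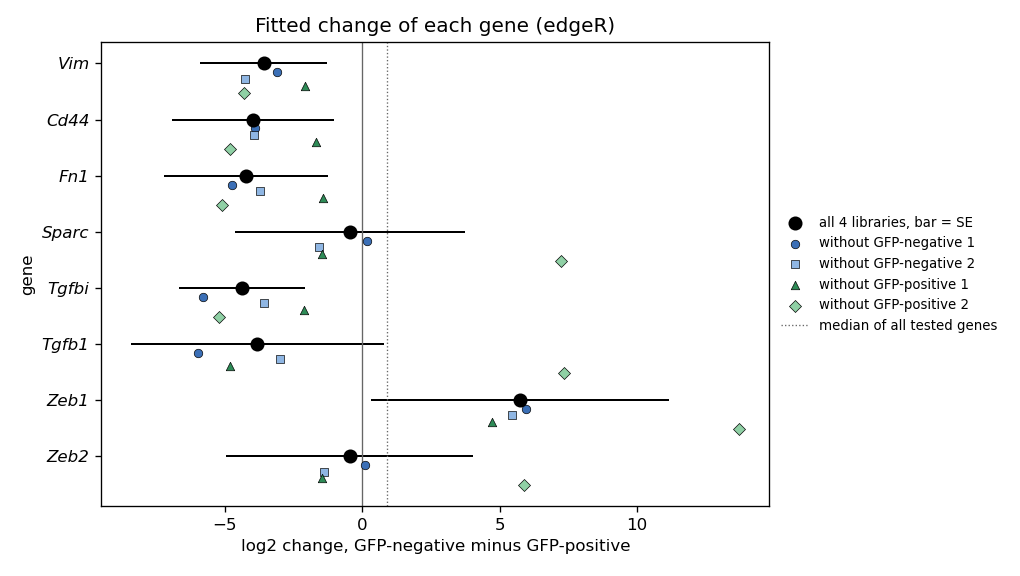
Fitted log2 change (GFP-negative minus GFP-positive) of 8 genes with bars of 1 SE (black), and the change with each library left out in turn (coloured symbols); the dotted line marks the median of all tested genes at 0.91. Snai2 is not drawn because both GFP-positive libraries had 0 counts. Sparc, Tgfb1 and Zeb2 move to the right of 0 when GFP-positive replicate 2 is left out, and Sparc and Zeb2 also, slightly, without GFP-negative replicate 1. Without GFP-positive replicate 2, Tgfb1 and Zeb1 have 0 counts in the remaining GFP-positive library, so the size of those points is not measured.

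Snai2, which encodes the zinc finger repressor SLUG, had counts in the GFP-negative libraries alone (chromosome 16, 14705852 to 14709385, plus strand). It had 3062 and 550 counts there, or 27.0 and 8.26 CPM, and 0 counts in both GFP-positive libraries. Among all tested genes, 5.45% had counts in both GFP-negative libraries and none in either GFP-positive library. Taking 3 counts per library as the limit and averaging over the group, the mean was at least 277-fold higher in GFP-negative cells. With each library left out in turn this limit ran from 130-fold, without GFP-negative replicate 1, to 425-fold, without GFP-negative replicate 2, and it was 374-fold without GFP-positive replicate 1. edgeR did not call it (adjusted p = 1.0, unadjusted p = 0.0676), and DESeq2's Wald test did (DESeq2 adjusted p = 0.0410).

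Zeb1 encodes a zinc finger repressor of epithelial genes (chromosome 18, 5591860 to 5775467, plus strand). It had 18.9 and 27.2 CPM in GFP-negative libraries, close to each other, against 0 and 0.86 CPM in GFP-positive libraries. The 2nd of these held 55 counts. Both GFP-negative libraries lay above both GFP-positive libraries. The log2 change was 5.73 ± 5.38 and 4.73 without GFP-positive replicate 1, where the deeper GFP-positive library alone stood for its group. The antisense gene Gm10125, which shares exon bases with Zeb1, had 16 and 49 counts in GFP-negative and 0 and 4 counts in GFP-positive libraries. The cDNA method does not mark the strand, so reads of such pairs cannot be told apart.

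Zeb2, the paralogue of Zeb1, did not share its pattern (chromosome 2, 44983632 to 45117395, minus strand). It had 3.30 and 9.34 CPM in GFP-negative libraries against 0.11 and 17.3 CPM in GFP-positive libraries, where replicate 1 held 4 counts. As for Sparc, the GFP-positive libraries lay on either side of the GFP-negative ones, and the log2 change of -0.46 ± 4.46 was -1.46 without GFP-positive replicate 1 and 5.86 without GFP-positive replicate 2. Zeb2os, an antisense gene that shares exon bases with Zeb2, had 0 and 106 counts in GFP-negative and 1469 and 274 counts in GFP-positive libraries. In GFP-positive replicate 1 the antisense gene thus had far more counts than the 4 of Zeb2 itself, and the split between both is uncertain.

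Levels were compared between genes by FPKM, the authors' values scaled to gene length. In GFP-positive libraries Tgfbi (130 and 18.8 FPKM) and Vim (79.1 and 21.2 FPKM) were the most abundant members, and changed places between the 2 libraries. In the GFP-negative libraries Snai2 led replicate 1 at 18.05 FPKM but came 3rd in replicate 2 at 3.39 FPKM, where Vim led at 7.26 FPKM. The order of these leading members therefore did not hold between replicates. Tgfb1 was last in both GFP-negative libraries, at 0.13 and 0.0091 FPKM, and Zeb2 stood just above it at 0.22 and 0.38 FPKM. Zeb1 exceeded Zeb2 in both GFP-negative libraries (2.49 and 2.201 FPKM), and Zeb2 exceeded Zeb1 in GFP-positive replicate 2, at 0.69 against 0.068 FPKM. In GFP-positive replicate 1 Zeb2 had 4 counts (0.0032 FPKM) and Zeb1 had 0, so their order there was not resolved.

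**Figure D3:**
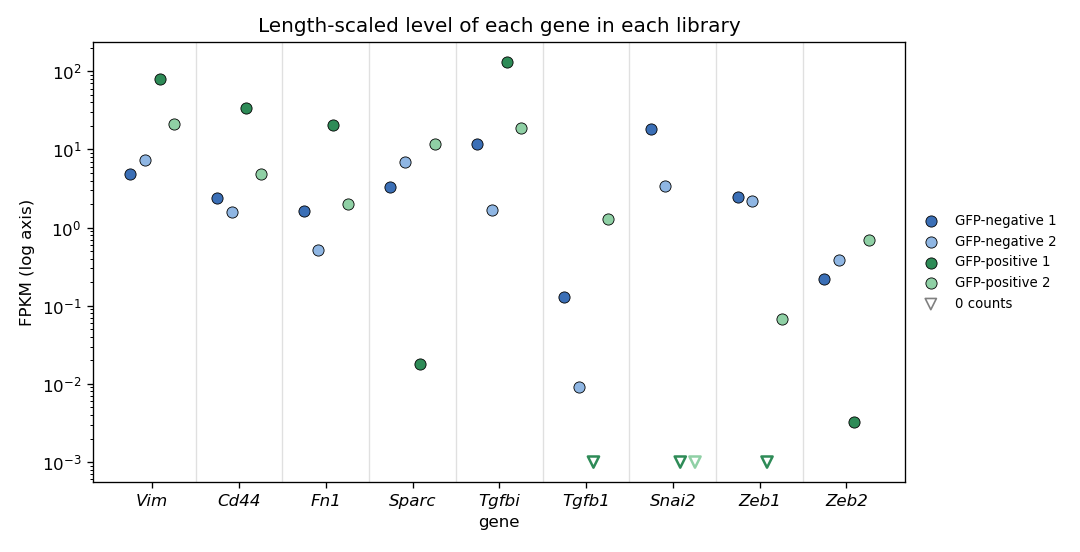
FPKM on a log axis for the 9 genes, with a point for each library; open triangles at the foot stand for 0 counts and not for a level. Tgfbi and Vim are the highest genes in both GFP-positive libraries, and Snai2 and Vim lead in the 1st and 2nd GFP-negative library.

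Likeness between profiles was measured as the Euclidean distance of log2(CPM + 1) over the 4 libraries, each gene centred on its own mean, among genes with a mean of 5 CPM or more. The 4 points of a profile share their libraries and depth, so these distances are a description. Cd44 and Fn1 were 0.77 apart, Tgfbi and Fn1 1.13 and Vim and Cd44 1.02, with Zeb2 and Sparc at 1.31 and Snai2 and Zeb1 at 1.62. Between Tgfbi and Zeb1 the distance was 8.70. Genes that are no members came closer: Vim was nearest to Gm10553 (0.24), S100a4 (0.396) and 4930589L23Rik (0.44), Cd44 to Cat, Grk2 and Tap1 (0.19, 0.196 and 0.25), and Tgfbi to Mapkapk2, Arap1 and Tnfrsf1a (0.51, 0.55 and 0.56). S100a4, a calcium-binding protein of motile cells, had 9.13 and 19.1 CPM in GFP-negative and 223 and 62.2 CPM in GFP-positive libraries.

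The wider programme was read from fixed lists, and no gene of the 6 lists passed the test. Members stayed in the counts and medians of the lists that hold them, which are thus not independent of the members. These are Vim, Cd44, Tgfbi, Fn1 and Sparc among structural genes and Snai2, Zeb1 and Zeb2 among transcription factors. Tgfb1 is in both TGF-beta lists and Tgfbi also among the responders. For comparison, 11102 of all 16301 tested genes had fitted changes above 0. Of 29 mesenchymal structural genes, 24 were tested, with 15 fitted changes below 0, 9 above and a median of -0.75, which was -1.38 without GFP-positive replicate 1. Besides members, the smallest p belonged to Tagln2 (log2 change -1.75 ± 1.59), the neural filament gene Nes (-3.95 ± 3.64), S100a4 (-3.34 ± 3.16) and S100a6 (-1.73 ± 2.24). Without that library these changes were -1.13, -4.95, -2.14 and -1.40. The actin-binding Tagln2 had 203 and 219 CPM in GFP-negative and 962 and 460 CPM in GFP-positive libraries, without overlap. Lgals1, another gene of that list, had 39.8 and 1579 CPM in GFP-negative and 741 and 850 CPM in GFP-positive libraries. The list was therefore mixed within each group as well as between groups. Named after its values were seen, Tpm1, a tropomyosin of stress fibres, had 90.4 and 95.7 CPM in GFP-negative and 0.21 and 45.2 CPM in GFP-positive libraries.

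Of 12 transcription factors of the transition, 7 were tested, with 3 changes below 0, 4 above and a median of 1.21, which was 0.21 without GFP-positive replicate 1. Snai1, the founding member of the SNAIL family, had 0.68 and 0.84 CPM in GFP-negative and 0 and 5.02 CPM in GFP-positive libraries. Tcf4, an E-box factor, had 121 and 92.9 CPM in GFP-negative and 282 and 126 CPM in GFP-positive libraries. Tcf3 and Tead1, with log2 changes of 1.58 ± 3.93 and 1.21 ± 4.49, had 0 counts in that library. Leaving it out gave 0.58 for Tcf3 and 0.21 for Tead1. Tcf4 was thus the one factor besides Snai2 and Zeb1 whose groups did not overlap, in the opposite direction to both.

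The TGF-beta pathway, from ligands and latency proteins to receptors and SMADs, had 20 of 23 genes tested, with 7 below 0, 13 above and a median of 0.71. Without GFP-positive replicate 1 the balance turned, with 11 below 0, 9 above and a median of -0.089. Ltbp3, which holds the latent ligand, had 1.13 and 8.95 CPM in GFP-negative and 178 and 6.01 CPM in GFP-positive libraries, so its log2 change of -4.19 ± 3.96 rested on 1 library and was -0.26 without it. The inhibitory Smad6, the signal carrier Smad2 and the repressor Skil had log2 changes of 3.17 ± 3.58, -1.80 ± 2.74 and -2.10 ± 3.36. Without the same library these were 2.18, 0.63 and -0.45, so the sign of Smad2 turned. Tgfb2, a ligand of the same family named after its values were seen, had 12.5 and 8.61 CPM in GFP-negative and 0 and 4.05 CPM in GFP-positive libraries. In GFP-positive replicate 1, 15 of the 21 listed genes had 0 counts, beside 64.4% of all tested genes. The receptor gene Tgfbr1 had 26.6 and 22.4 CPM in GFP-negative and 0 and 73.6 CPM in GFP-positive libraries. Tgfbr2, also a receptor gene, had 5.73 and 3.41 CPM in GFP-negative and 0.11 and 26.4 CPM in GFP-positive libraries.

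Of 12 genes known to respond to TGF-beta, 10 were tested, with 7 changes below 0, 3 above and a median of -2.64, which was -1.27 without GFP-positive replicate 1. Junb, an AP-1 factor, had 498 and 166 CPM in GFP-negative and 2700 and 1417 CPM in GFP-positive libraries, without overlap. Its log2 change was -2.63 ± 1.16 (adjusted p = 1.0 in edgeR) and -2.10 without that library. Bhlhe40, a transcriptional repressor, had 372 and 23.7 CPM in GFP-negative and 2687 and 232 CPM in GFP-positive libraries, with overlap. Its log2 change of -2.88 ± 1.34 was -0.24 without GFP-positive replicate 1. Pmepa1, a feedback inhibitor of the pathway, had 4.84 and 20.005 CPM in GFP-negative and 65.6 and 134 CPM in GFP-positive libraries, without overlap. Of the 10 listed responders, 5 had 0 counts in GFP-positive replicate 1, Ccn2 and Tagln among them, beside 64.4% of all tested genes. Junb, Bhlhe40 and Skil, like Tgfbi, were highest in that library.

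Partners of the secreted and surface members were tested for 14 of 18 genes, with 10 changes below 0, 4 above and a median of -0.75, which was -0.67 without GFP-positive replicate 1. Spp1, the secreted CD44 ligand osteopontin, had 23.4 and 2366 CPM in GFP-negative and 6725 and 1973 CPM in GFP-positive libraries, with overlap. Its log2 change was -1.86 ± 0.83 (adjusted p = 1.0 in edgeR) and -0.73 without that library. Itgb5, an integrin chain, had 14.2 and 25.3 CPM in GFP-negative and 365 and 179 CPM in GFP-positive libraries. Srgn, a proteoglycan core protein that binds CD44, had 24.6 and 249 CPM in GFP-negative and 806 and 486 CPM in GFP-positive libraries. Itgb8, an integrin chain that activates latent TGF-beta, lay on the other side, with 9.70 and 1.70 CPM in GFP-negative libraries and 0 counts in both GFP-positive libraries.

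Repressors of the mesenchymal state were tested for 6 of 10 genes, with 2 changes below 0, 4 above and a median of 2.95, which was 1.97 without GFP-positive replicate 1. Grhl3, an epithelial transcription factor, had 4.16 and 9.76 CPM in GFP-negative libraries and 0 counts in both GFP-positive libraries. Elf3 had 215 and 12.1 CPM in GFP-negative and 0 and 20.6 CPM in GFP-positive libraries, Ovol1 18.7 and 6.11 against 0 and 2.09 CPM, and Grhl1 a log2 change of 2.45 ± 4.69, or 1.49 without that library. Grhl3 and Ovol1 thus lay higher in both GFP-negative libraries, as Snai2 and Zeb1 did. Cdh1, the E-cadherin gene that SNAI and ZEB factors repress, had 111 and 2.49 CPM in GFP-negative and 0.11 and 2.82 CPM in GFP-positive libraries, with overlap.

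Marker lists of the tumour cells and of other cells varied with the same libraries. Summed over 20 listed macrophage markers, the level was 1323 and 23175 CPM in GFP-negative and 124493 and 72301 CPM in GFP-positive libraries. All 20 had fitted changes below 0 and 3 of them, Chil3, Lyz2 and Ctss, were called lower (edgeR adjusted p = 1.8e-17, 2.22e-07 and 0.00312). All 20 lay below 0 also when GFP-positive replicate 1 was left out, but then 0 were called. Of the defining macrophage genes, Siglecf had 0 counts in GFP-negative replicate 2 and GFP-positive replicate 1, and Csf1r had 43.6 and 19.3 CPM in GFP-negative and 1852 and 260 CPM in GFP-positive libraries. Vim, Cd44, Tgfbi and Fn1 thus lay where macrophage markers were high between groups, and their part in the result was not tested. Within the GFP-negative group the marker sum was lowest in replicate 1. There Tgfbi was 4.35 times and Fn1 1.89 times its level in replicate 2, opposite to the sum. Cd44 at 0.92 times and Vim at 0.41 times were lower, as the sum was. Within the GFP-positive group the sum was higher in replicate 1, and so were all of these genes. Chil3 and Lyz2 were the largest parts of that sum, at 42910 and 43154 CPM, against 6561 and 19819 CPM in replicate 2. Not every marker followed the sum: C1qa, C1qb and C1qc, among others, were higher in replicate 2. Vim was 4.67 times, Cd44 8.84 times, Tgfbi 8.66 times and Fn1 12.8 times its level in replicate 2.

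Ratios within a library, chosen after the values were seen, do not depend on scaling. Per CPM of Epcam, Vim had 0.067 and 0.47 in GFP-negative and 6.18 and 1.89 in GFP-positive libraries, and Tgfbi 0.13 and 0.086 against 8.06 and 1.33. Cd44 and Fn1 likewise did not overlap by this ratio. Per 1000 CPM of the summed macrophage markers, Vim had 12.9 and 1.79 CPM in GFP-negative and 4.67 and 1.72 CPM in GFP-positive libraries, and Tgfbi had 25.1 and 0.33 against 6.09 and 1.21 CPM. By that ratio the groups overlapped for all of Vim, Cd44, Tgfbi and Fn1, and did not overlap for Snai2, Zeb1, Zeb2 and Sparc, which lay higher in GFP-negative libraries. The divisor itself was lower in both GFP-negative libraries, at 1323 and 23175 CPM against 124493 and 72301 CPM. A gene of even CPM would therefore separate in this direction. Zeb2 and Sparc overlapped in CPM, and the share of all genes separated by this ratio was not computed.

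Fibroblast markers summed to 147 and 252 CPM in GFP-negative and 610 and 482 CPM in GFP-positive libraries, so the groups did not overlap, and 0 of 8 tested genes were called. Of the 8, 3 had fitted changes below 0, and 7 had without GFP-positive replicate 1. The largest part of the sum in each library was Gsn, the actin-severing gelsolin, at 75.0 and 113 CPM in GFP-negative and 578 and 310 CPM in GFP-positive libraries. Inmt, a methyltransferase gene, had 0 counts in both GFP-negative libraries and stood at 32.1 and 12.9 CPM in GFP-positive libraries. The defining collagen genes were scarce: Col1a1 had 4.78 and 2.57 CPM in GFP-negative and 0 and 8.24 CPM in GFP-positive libraries, and Col1a2 had 0 counts in GFP-positive replicate 2. Dcn, the fibroblast proteoglycan decorin, had 12.7 and 57.2 CPM in GFP-negative and 0 and 58.6 CPM in GFP-positive libraries. GFP-positive replicate 1, where Vim, Cd44, Tgfbi and Fn1 were highest and Sparc was nearly absent, thus had the highest Gsn and Inmt and 0 counts for 5 of the 9 listed genes, Col1a1 and Dcn among them. The part of fibroblast RNA in the result was not tested.

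The remaining lists were these. Smooth muscle and pericyte markers reached 13.6 and 2.18 CPM in GFP-negative and 0.11 and 8.41 CPM in GFP-positive libraries, with 2 of 8 genes listed. Endothelial markers summed to 107 and 72.3 CPM in GFP-negative and 396 and 31.5 CPM in GFP-positive libraries, with 0 of 7 tested genes called. The 396 CPM were Pecam1 almost alone, since 5 of the 7 genes had 0 counts in that library, and Vwf, Kdr and Emcn had 0 counts in both GFP-positive libraries. Epithelial markers stood at 3610 and 1286 CPM in GFP-negative and 1996 and 595 CPM in GFP-positive libraries, and neuroendocrine markers at 5315 and 3231 against 3463 and 1563 CPM, with 0 genes called in either list. Lymphocyte markers summed to 2938 and 20153 CPM in GFP-negative and 1890 and 6673 CPM in GFP-positive libraries, with 0 of 10 called. Erythroid markers reached 1573 and 5395 CPM in GFP-negative and 45562 and 14336 CPM in GFP-positive libraries, with 2 of 6 called lower, and hepatocyte markers 23.5 and 319 against 27262 and 159 CPM, with 3 of 4 tested called lower. Without GFP-positive replicate 1 the erythroid median moved from -4.14 to -2.11 and the hepatocyte median from -14.5 to -1.38. In that fit 2 of the 4 hepatocyte genes lay above 0. Alb, the albumin gene, had turned to 6.06, against -14.59 with that library. For Alb it set 16 and 4 counts against 0, so the size of 6.06 is not measured. The library with the highest Vim, Cd44, Fn1 and Tgfbi, GFP-positive replicate 1, was thus also the one with the highest macrophage, fibroblast, endothelial, erythroid and hepatocyte sums. That order did not hold for every gene of those lists.

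**Figure D4:**
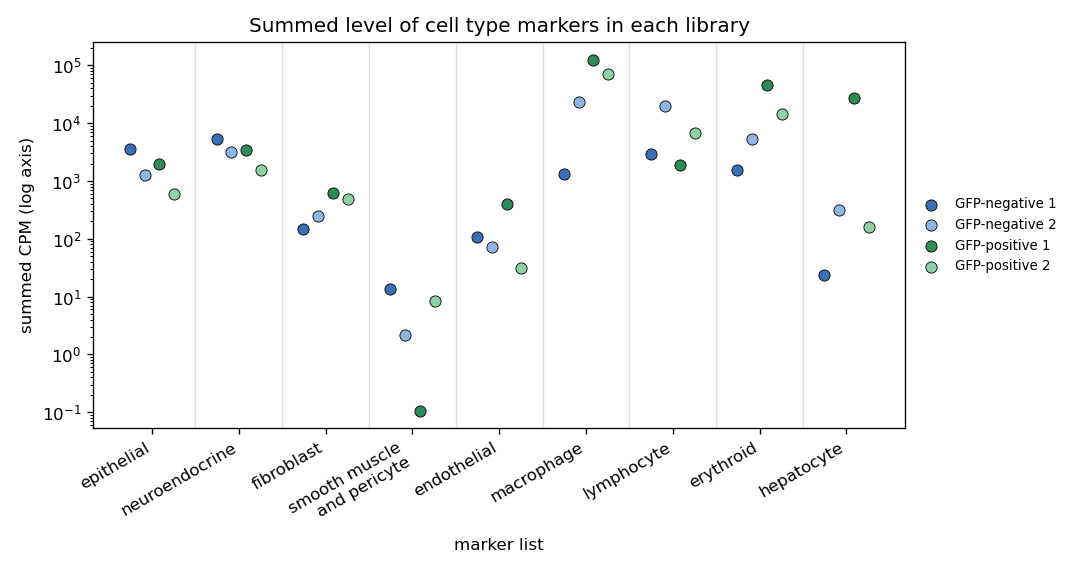
Summed CPM on a log axis of 9 lists of cell type markers, with a point for each library (blue, GFP-negative; green, GFP-positive). Macrophage, fibroblast and erythroid markers have both green points above both blue points, and epithelial and neuroendocrine markers overlap between groups.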

How the data were processed

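The authors deposited 1 table of whole-number counts and of FPKM (fragments scaled to gene length and library total) for 4 libraries, per the file headers. The submitters' processing notes name cutadapt 1.9, HISAT2 2.2.1, StringTie 2.1.6, DESeq2, edgeR and build mm10; no source used here gives the annotation or the counting of shared reads. Per the labels' protocols, cDNA was made from little RNA by oligo(dT) priming, template switching and PCR. There are no molecular identifiers, so errors from counts understate the true error.

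Counts were fitted in R 4.3.3 with edgeR 4.0.16 (filterByExpr with a minimum count of 10, TMM, glmQLFit and glmQLFTest, the group as the only term), with Benjamini-Hochberg adjustment over 16301 genes and a threshold of 0.05. An SE is the size of the log2 change over the root of its F statistic. Limma 3.58.1 and DESeq2 1.42.0 gave alternatives. Positions came from GENCODE M21 (mm10), where 17315 of 17746 symbols matched 1 gene, and promoters from RefSeq on GRCm38.p6. The edgeR script was tested on simulated counts that varied far less than these data and held no library like GFP-positive replicate 1. In these data the common coefficient of variation that edgeR estimates between libraries of a group was 1.92. The simulation therefore checks the script and does not give its power on these data.

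The members and the 6 gene and 9 marker lists were chosen with earlier results of these data known. Named genes are all members, up to 4 called or else the 4 smallest p of each gene list, the 3 nearest profiles of Vim, Cd44 and Tgfbi, and the markers; Lgals1, Ccn2, Tagln, Tgfbr1, Tgfbr2 and those so marked were added after their values were seen. A listed gene stayed in every fit and count but is not reported here. Reporter sequences were not analysed here.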

Additional observations from a re-analysis of the deposited data

How the results depend on the processing

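Over 16 alternatives to the edgeR fit, Vim, Cd44, Tgfbi and Fn1 stayed below 0 and Snai2 and Zeb1 above 0 in each that gave a value. The number of members called was 0 except for 1 in DESeq2's Wald test and 0 to 7 with each library left out in turn. The 7 came without GFP-positive replicate 2 (4 lower, 3 higher), where 7601 genes, 45.2% of those tested, were called and the spread of a lone library is assumed to equal that of the other group. Over all genes 16 were called, against 0 among genes with counts in all 4 libraries, 0 with upper quartile scaling, 63 with DESeq2's Wald test, 4 with limma-voom, 42 with limma on log2(FPKM + 0.1), and 1 to 7601 with each library left out. Unadjusted p-values under 0.05 numbered 168 among genes with counts in all 4 libraries and 1150 with upper quartile scaling, where the upper quartile of GFP-positive replicate 1 was 10 counts, against 1993 to 4131 in the others, and Vim had a log2 change of -10.20.

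Directions turned for 3 members. With each library left out in turn, Tgfb1 ran from -5.99 to 7.34, Zeb2 from -1.46 to 5.86 and Sparc from -1.59 to 7.23, each highest without GFP-positive replicate 2. For Tgfb1 the remaining GFP-positive library had 0 counts, so the size of 7.34 is not measured. Without GFP-negative replicate 1, Zeb2 and Sparc were 0.10 and 0.17. Zeb2 was 1.99 with a replicate block, 2.13 with limma-voom and 0.46 with limma on log2(FPKM + 0.1). Sparc was 2.61 with a replicate block, 2.65 with limma-voom and 2.03, 0.69 and 0.11 with limma on FPKM at pseudocounts of 0.1, 1 and 5; the cause was not tested. The labels give the groups a shared replicate number but no pairing. Deviations of same-numbered libraries correlated at 0.033, and the replicate block called 21 genes and 0 members. Each group had 2 libraries, and Tgfb1, Snai2, Zeb1, Zeb2 and Sparc had 0 to 5 counts in GFP-positive replicate 1. The changes of these 5 members had a wider SE than those of the other members. The part of low counts in this, and why that library held so few genes, was not tested.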
